A study of Mus musculus with 11 samples.

Results

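The 10 genes described here act at the point where a cell exposed to a tumour necrosis factor (TNF) family ligand either survives or dies. They were chosen by name: the receptors Fas, Tnfrsf1a and Tnfrsf1b, the receptor-complex kinases Ripk1 and Ripk3, the caspase Casp8 and its inhibitor-like partner Cflar, the ubiquitin ligases Birc2 and Birc3, and the ubiquitin-editing enzyme Tnfaip3. All 10 were found among the 48299 genes of the raw count table. RNA sequencing profiled poly(A) RNA of WFU3, a mouse prostate epithelial stem cell line, in 11 libraries whose cells carried lentiviral short hairpin RNAs (shRNAs). The series compared knockdown of Map3k7 (the TAK1 kinase gene), of Chd1 (a chromatin remodeller gene) and of both.

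TNF receptor 1 assembles a membrane complex in which RIPK1 and the cIAP ubiquitin ligases recruit TAK1, which in turn activates NF-kB and MAP kinase signalling. NF-kB induces survival genes such as Birc3, Cflar and Tnfaip3, and when this arm is blocked the receptor can engage a second complex in which FADD and caspase-8 start apoptosis, or RIPK3 and MLKL start necroptosis. Loss of TAK1 is known to sensitise many epithelial cells to TNF. The labels name no added TNF or other ligand.

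The shMap3k7 group held 2 libraries, Map3k7-hairpin clones 1 (replicate 1, passage 49) and 7 (replicate 2, passage 47), each with a second, control hairpin. The shDouble group held 4 libraries, in which the Chd1 hairpin constructs 96526 and 96528 were put into clone 1 (replicates 1 and 2, passage 49) and into clone 7 (replicates 3 and 4, passage 48). The shChd1 group held 2 libraries, constructs 96526 (replicate 1, passage 52) and 96528 (replicate 2, passage 50), both in control line 4. The shControl group held 3 libraries with control hairpins only: an unnumbered line marked puro and neo at passage 30 (replicate 1) and lines 4 and 5 at passage 52 (replicates 2 and 3). All libraries except the unnumbered control carried a GFP-marked and a puromycin-marked hairpin. Each numbered line descends from a selected clone, so Map3k7 knockdown is represented by 2 clones and Chd1 knockdown alone by 1 line. Within a group, no 2 libraries share both line and Chd1 construct. The p-values therefore measure the spread between libraries within a group, in which lines, constructs and passages are mixed. Libraries were treated as independent, although several share a line and the consensus correlation within lines was 0.631. The spread between lines may thus be understated, and shChd1, with 1 line, adds nothing to it. Each combination of line and construct has 1 library, so the spread between repeat cultures of a combination is not known.

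Levels are given as counts-per-million (CPM), scaled by the trimmed mean of M-values. A gene is said to rise or fall where edgeR's quasi-likelihood test, fitted to all 11 libraries and Benjamini-Hochberg adjusted over 14346 genes, gave an adjusted p under 0.05. Map3k7 averaged 41.5 ± 2.07 CPM in shMap3k7 (SD, n = 2), 41.0 ± 1.27 CPM in shDouble (n = 4) and 138 ± 0.264 CPM in shChd1 (n = 2), against 134 ± 8.91 CPM in shControl (n = 3). Chd1 stood at 112.6% of the shControl mean in shMap3k7, 91.3% in shDouble and 72.6% in shChd1. It fell in shChd1 against shControl (-0.46 ± 0.10 on the log2 scale, edgeR adjusted p = 0.0470), a call kept in 5 of 18 alternatives. In shDouble against shControl it did not pass the test (-0.13 ± 0.09, adjusted p = 0.291), with ranges that overlapped, and in shDouble it was higher than in shChd1 (0.33 ± 0.10, adjusted p = 0.0199). Total counts ran from 14132371 to 23163709 per library, and every pair of libraries within a group differed beyond counting noise. Epithelial markers (Epcam, Cdh1, Krt8, Krt18, Krt5, Krt14 and Trp63) summed to 10135 to 10311 CPM in shMap3k7, 9904 to 10483 CPM in shDouble, 2039 to 2291 CPM in shChd1 and 3832 to 9661 CPM in shControl. Krt8, Krt18 and Krt14 carried most of these sums. The basal markers Krt5 and Trp63 did not follow them: Krt5 averaged 0.214, 0.375, 0.996 and 16.4 CPM in the same order of groups, and Trp63 1.20, 1.27, 19.7 and 9.56 CPM. The 7 fibroblast markers summed to 7.61 to 10.7, 5.35 to 8.997, 127 to 134 and 26.3 to 99.7 CPM in the same order, with Lum at 0 in all libraries and Dcn at 0 in the Map3k7 clones. Immune markers summed to at most 4.11 CPM in any library. Endothelial markers summed to 38.7 CPM in the unnumbered control and to at most 0.498 CPM elsewhere. These marker levels move with the groups, and their part in the results below was not tested. In bulk samples, fewer cells of a type and less RNA per cell cannot be told apart.

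The sequence before the start site is shown for the 3 members whose mRNA differed most between the Map3k7 clones and the other lines (Fas, Tnfrsf1b and Birc3) and for Tnfaip3, the one member with a match to the NF-kB site consensus. Each line gives the 250 bases before the RefSeq start, 5′ to 3′ on the gene's strand, from RefSeq on GRCm38.p6. The Fas window is chr19:34290409-34290658 on the plus strand, and those of Tnfrsf1b (chr4:145246871-145247120), Birc3 (chr9:7873171-7873420) and Tnfaip3 (chr10:19015411-19015660) are on the minus strand. Capitals mark matches to the consensus.
Fas: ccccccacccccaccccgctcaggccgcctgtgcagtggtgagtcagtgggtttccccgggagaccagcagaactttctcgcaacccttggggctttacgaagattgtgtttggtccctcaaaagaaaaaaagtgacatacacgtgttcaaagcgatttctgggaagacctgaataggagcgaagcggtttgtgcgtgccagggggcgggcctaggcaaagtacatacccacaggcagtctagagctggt
Tnfrsf1b: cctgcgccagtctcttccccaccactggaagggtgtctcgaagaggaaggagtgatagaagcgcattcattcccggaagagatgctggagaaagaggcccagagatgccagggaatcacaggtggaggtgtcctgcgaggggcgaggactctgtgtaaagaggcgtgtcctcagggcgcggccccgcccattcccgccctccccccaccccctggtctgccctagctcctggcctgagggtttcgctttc
Birc3: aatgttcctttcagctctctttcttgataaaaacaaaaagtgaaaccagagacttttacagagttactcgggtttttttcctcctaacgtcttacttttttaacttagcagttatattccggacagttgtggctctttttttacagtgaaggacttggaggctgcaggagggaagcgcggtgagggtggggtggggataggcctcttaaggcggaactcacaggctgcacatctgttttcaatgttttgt
Tnfaip3: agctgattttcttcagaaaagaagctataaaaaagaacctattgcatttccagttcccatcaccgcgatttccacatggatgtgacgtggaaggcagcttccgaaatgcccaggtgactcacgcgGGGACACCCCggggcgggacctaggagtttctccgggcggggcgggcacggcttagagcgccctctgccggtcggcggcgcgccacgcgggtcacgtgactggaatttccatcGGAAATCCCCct
The Tnfaip3 matches begin 125 bases before the start, where both strands match, and 12 bases before it, on the opposite strand. Another RefSeq start of Tnfaip3, with its window at chr10:19011964-19012213 on the minus strand, is not shown and held no match. The consensus was searched on both strands in windows of 250 bases before and 50 after each start. It was held by 1 of the 13 windows of the 10 members, against 2779 of all 32851 windows (8.46%). A match is a description of letters and not a site of binding, and a window without one says only that these letters are not in it.

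Among the receptors, all 3 were lower in each of the 6 Map3k7 clone libraries than in any other library. Fas encodes the receptor of Fas ligand, a direct death receptor (chromosome 19, 34290666 to 34327772, plus strand; GENCODE M21 on GRCm38, as for all genes here). It measured 2.93 and 3.84 CPM in shMap3k7, 1.81, 2.57, 3.64 and 0.773 CPM in shDouble, 24.3 and 23.7 CPM in shChd1, and 8.11, 27.04 and 11.5 CPM in shControl. The 6 libraries of Map3k7 clones thus lay at 3.84 CPM or below and the 5 others at 8.11 CPM or above, while shMap3k7 overlapped shDouble and shChd1 overlapped shControl. The control line 4 library was 2.75 times the mean of the other controls, and the shChd1 libraries, made in that line, lay close to it. Fas fell in both groups of Map3k7 clones against shControl, with log2 differences of -2.20 ± 0.61 in shMap3k7 (SE; edgeR adjusted p = 0.0412) and -2.81 ± 0.48 in shDouble (adjusted p = 0.00285). In shDouble against shChd1 it fell by 3.44 ± 0.51 (adjusted p = 6.0e-04). The lowest value, 0.773 CPM, rested on 13 counts, with a 95% Poisson interval of 0.411 to 1.32 CPM for counting error only.

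Tnfrsf1b encodes TNF receptor 2, which lacks a death domain and signals through TRAF2 and the cIAPs (chromosome 4, 145213463 to 145246870, minus strand). It measured 6.89 and 13.4 CPM in shMap3k7, 9.59, 10.0, 8.96 and 9.27 CPM in shDouble, 108 and 94.5 CPM in shChd1, and 23.8, 68.1 and 27.8 CPM in shControl. Its group order was shChd1 above shControl above the Map3k7 clones, with no overlap between these 3 levels and overlap between shMap3k7 and shDouble. As for Fas, the line 4 control stood above the other controls, by 2.64 times their mean. Tnfrsf1b fell in all 3 comparisons, with log2 differences of -1.98 ± 0.44 in shMap3k7 against shControl (edgeR adjusted p = 0.0184), -2.08 ± 0.34 in shDouble against shControl (adjusted p = 0.00235) and -3.42 ± 0.37 in shDouble against shChd1 (adjusted p = 1.2e-04).

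Tnfrsf1a encodes TNF receptor 1, the main death-domain receptor of soluble TNF (chromosome 6, 125349362 to 125362484, plus strand). It measured 56.6 and 61.1 CPM in shMap3k7, 58.7, 70.9, 53.9 and 62.3 CPM in shDouble, 95.5 and 88.7 CPM in shChd1, and 84.9, 91.7 and 84.9 CPM in shControl. This was a smaller and tighter difference: the Map3k7 clones reached 70.9 CPM at most and the other libraries began at 84.9 CPM. Tnfrsf1a fell with log2 differences of -0.57 ± 0.12 in shMap3k7 against shControl (edgeR adjusted p = 0.0159), -0.50 ± 0.10 in shDouble against shControl (adjusted p = 0.00546) and -0.58 ± 0.11 in shDouble against shChd1 (adjusted p = 0.00195). Per kilobase of merged exons, which allows levels of different genes to be set side by side, Tnfrsf1a was the most abundant member in shControl at 33.6 CPM per kilobase, against 10.4 for Tnfrsf1b and 7.55 for Fas.

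**Figure D1:**
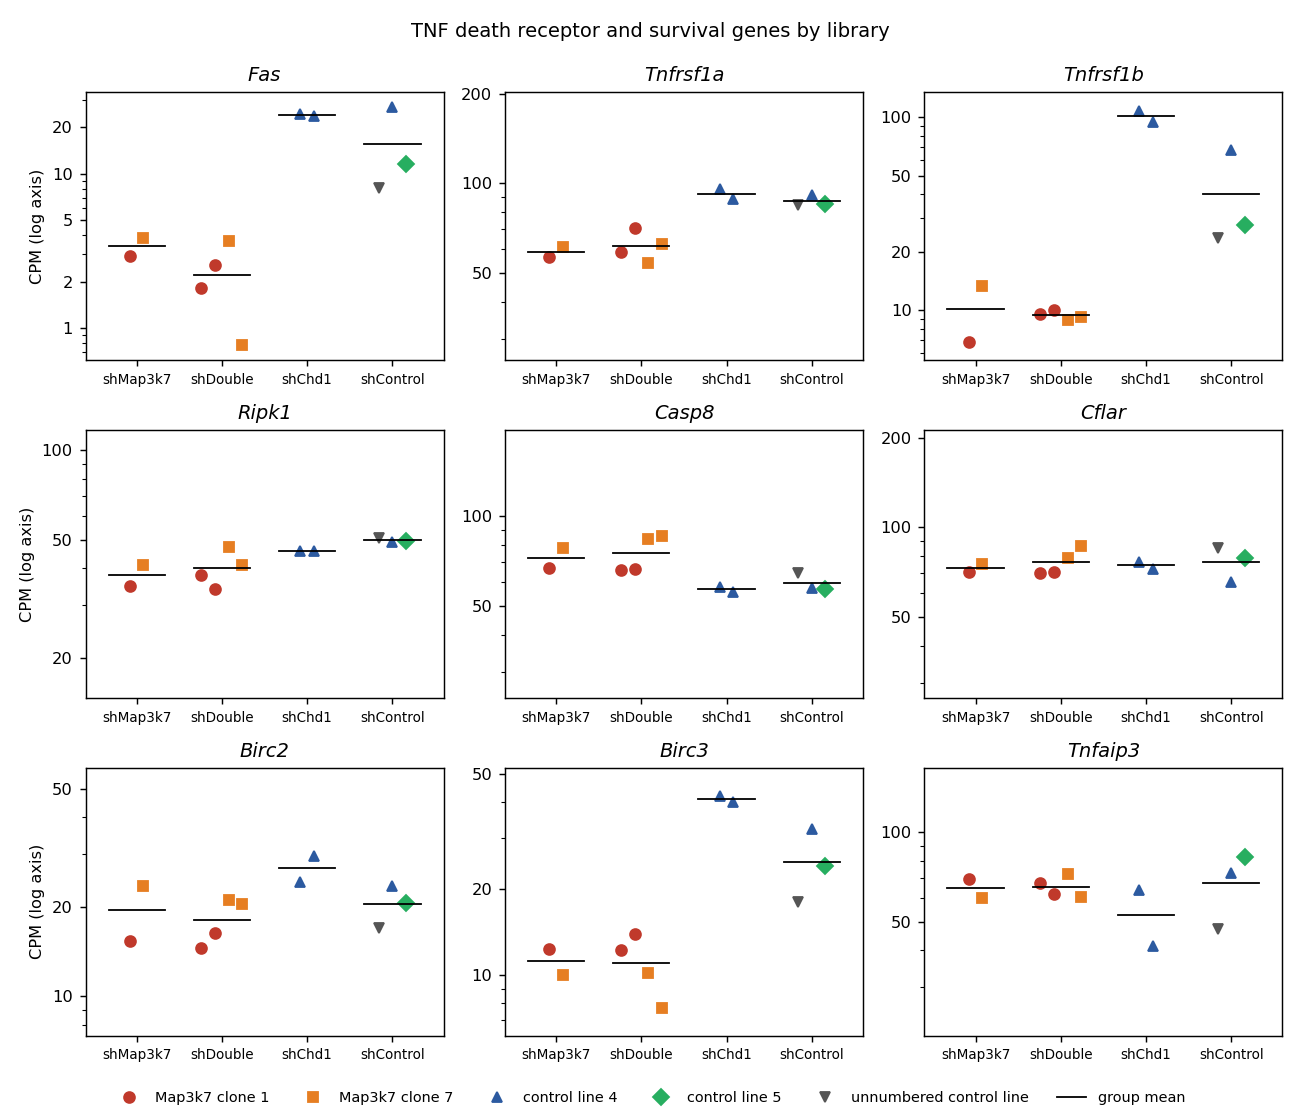
CPM (log axis) of the 9 members tested in each of the 11 libraries, by group; points are libraries, coloured by line, and bars are group means. Fas, Tnfrsf1a, Tnfrsf1b and Birc3 were lower in all 6 libraries of Map3k7 clones than in the 5 others, and Casp8 was higher.

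Birc3 showed the pattern of the receptors and its neighbour Birc2 did not. Birc3 encodes cIAP2, an NF-kB-induced ubiquitin ligase that modifies RIPK1 (chromosome 9, 7848699 to 7873186, minus strand), and Birc2 encodes cIAP1, which does the same work (chromosome 9, 7818227 to 7837064, minus strand). Birc3 measured 12.4 and 10.1 CPM in shMap3k7, 12.2, 13.9, 10.2 and 7.73 CPM in shDouble, 42.1 and 40.1 CPM in shChd1, and 18.0, 32.1 and 24.0 CPM in shControl. The Map3k7 clones all lay below the lowest control, and both shChd1 libraries above the highest. Birc3 fell with log2 differences of -1.14 ± 0.28 in shMap3k7 against shControl (edgeR adjusted p = 0.0265), -1.16 ± 0.22 in shDouble against shControl (adjusted p = 0.00479) and -1.90 ± 0.24 in shDouble against shChd1 (adjusted p = 2.7e-04).

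Birc2 measured 15.3 and 23.5 CPM in shMap3k7, 14.5, 16.3, 21.1 and 20.4 CPM in shDouble, 24.1 and 29.7 CPM in shChd1, and 17.0, 23.6 and 20.6 CPM in shControl. The clones differed: all 3 libraries of clone 1 (14.5 to 16.3 CPM) lay below the lowest control, and the 3 of clone 7 (20.4 to 23.5 CPM) lay within the control range. Its log2 difference from shControl was -0.07 ± 0.23 in shMap3k7 (edgeR adjusted p = 0.874) and -0.17 ± 0.19 for shDouble (adjusted p = 0.545). In shDouble against shChd1 it fell by 0.58 ± 0.21 (adjusted p = 0.0478), a call kept in 9 of 17 alternatives. It ended without either shChd1 library, shDouble replicate 1 or 2, or shControl replicate 3 (adjusted p = 0.0587 to 0.303), with no filter on low counts (0.0559), with limma on the deposited log2 values (0.0543) and with the line as a random replicate block (0.176). The deposited expected counts were whole in all 11 libraries for Birc2 and in 9 of 11 for Birc3.

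Casp8 was the member that stood higher in the Map3k7 clones. It encodes caspase-8, the initiator protease of receptor-driven apoptosis, which also cleaves RIPK1 (chromosome 1, 58795374 to 58847503, plus strand). It measured 66.9 and 78.3 CPM in shMap3k7, 65.8, 66.7, 84.1 and 85.8 CPM in shDouble, 57.8 and 55.8 CPM in shChd1, and 64.7, 57.4 and 57.0 CPM in shControl. The ranges did not overlap, but the gap between the lowest clone 1 library and the highest control was 65.8 against 64.7 CPM, and clone 7 stood higher than clone 1. Casp8 rose in shDouble against shChd1, by 0.41 ± 0.14 on the log2 scale (edgeR adjusted p = 0.0317). Its differences from shControl, 0.28 ± 0.14 in shMap3k7 (adjusted p = 0.215) and 0.34 ± 0.12 for shDouble (adjusted p = 0.0629), did not pass the test. The call against shChd1 ended without either shChd1 library or without shDouble replicate 3 or 4 (adjusted p = 0.0682 to 0.166), and with the line as a random replicate block (adjusted p = 0.0857).

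Cflar and Ripk1 differed little. Cflar encodes c-FLIP, which pairs with caspase-8 and holds back its activation (chromosome 1, 58711508 to 58758884, plus strand, upstream of Casp8 on the same strand). It measured 71.0 and 75.5 CPM in shMap3k7, 70.4, 70.8, 79.0 and 86.5 CPM in shDouble, 76.4 and 72.6 CPM in shChd1, and 85.3, 65.6 and 78.7 CPM in shControl. All 4 groups overlapped, and the log2 difference from shControl was -0.06 ± 0.13 in shMap3k7 (edgeR adjusted p = 0.791) and 0.0022 ± 0.11 for shDouble (adjusted p = 0.992). Ripk1 encodes the receptor-interacting kinase at the centre of both complexes (chromosome 13, 34002363 to 34037147, plus strand). It measured 34.9 and 41.1 CPM in shMap3k7, 38.1, 34.0, 47.2 and 41.1 CPM in shDouble, 45.8 and 45.9 CPM in shChd1, and 50.4, 49.2 and 49.4 CPM in shControl. Every library with a Map3k7 or Chd1 hairpin lay below the 3 controls, yet its log2 difference of -0.39 ± 0.14 in shMap3k7 (adjusted p = 0.0913) and of -0.31 ± 0.11 for shDouble (adjusted p = 0.0699) did not pass the test.

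Tnfaip3 encodes A20, an NF-kB-induced enzyme that restrains the same receptor complex (chromosome 10, 19000910 to 19015657, minus strand). It measured 69.4 and 59.9 CPM in shMap3k7, 67.3, 62.0, 72.5 and 60.4 CPM in shDouble, 63.8 and 41.2 CPM in shChd1, and 47.1, 72.7 and 82.6 CPM in shControl. The controls spanned 1.75-fold, wider than the Map3k7 clones, and enclosed all 6 of them. Its log2 difference from shControl was -0.06 ± 0.23 in shMap3k7 (edgeR adjusted p = 0.889) and -0.04 ± 0.19 for shDouble (adjusted p = 0.895).

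Ripk3, the kinase that activates MLKL in necroptosis (chromosome 14, 55784995 to 55788865, minus strand), had 1 count in all 11 libraries, in the second shChd1 library, and was not tested. A count of 0 allows a level of up to 3 counts, which is 0.133 to 0.217 CPM per library. The other 9 members passed the filter on low counts, with a lowest count of 13, so none passed only through the group in which it was high. Mlkl, the next step after Ripk3, was measured well, at 57.8 to 75.2 CPM in shMap3k7, 62.2 to 77.2 CPM in shDouble, 55.3 to 59.3 CPM in shChd1 and 51.5 to 57.5 CPM in shControl.

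In shMap3k7 against shControl, 4 of the 9 members tested fell and 0 rose, where 7.08% of all 14346 genes were called lower and 4.86% higher (11.9% in either direction). The median log2 difference of the 9 was -0.39, against -0.01 over all genes tested. The ranges did not overlap for 5 members that were lower (Fas, Tnfrsf1a, Tnfrsf1b, Birc3 and Ripk1) and 1 that was higher (Casp8), where 22% and 20.9% of all genes did so (42.9% in either direction). The calls in this comparison rest on few libraries: 0 of the 4 were made when only the groups compared were fitted or when the line was a random replicate block, 0 without shMap3k7 replicate 1, 1 without shMap3k7 replicate 2 and 2 without shControl replicate 2. Fas was the least steady, with adjusted p of 0.0545 to 0.207 without either shMap3k7 library, shDouble replicate 1 or 2, either shChd1 library or shControl replicate 2. Each of the 4 kept its sign in all 18 alternatives.

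In shDouble against shControl the same 4 fell and 0 rose, where 13.6% of all genes were called lower and 10.2% higher (23.8% in either direction). The same 6 members as before had ranges that did not overlap, 5 lower and 1 higher, where 16.7% and 15.9% of all genes did so (32.5% in either direction). The median was -0.31, against -0.0015 over all genes. These calls were steadier: over the alternatives 3 to 6 members were called, and only Tnfrsf1a lost its call, with the line as a random replicate block (-0.51, adjusted p = 0.0527). The 4 shDouble libraries come from the same 2 clones as shMap3k7. Leaving out 1 of them removed no clone, while leaving out a shMap3k7 library did, so this steadiness does not rest on more clones. In shDouble against shChd1, 5 members fell (those 4 and Birc2) and 1 rose (Casp8), where 22.2% of all genes were called lower and 22.6% higher (44.8% in either direction). For these 6 the ranges did not overlap either, as for 31.9% of all genes that were lower and 31.8% that were higher (63.7% in all). The median was -0.58, against 0.0066 over all genes. The comparisons with shControl share its 3 libraries, and both comparisons of shDouble share its 4, so their results are not independent. Over the 6 libraries of Map3k7 clones and the 5 others, 4 members were lower in every library and 1 higher, where 12.8% of all genes were so lower and 12.1% higher (24.9% in either direction).

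**Figure D2:**
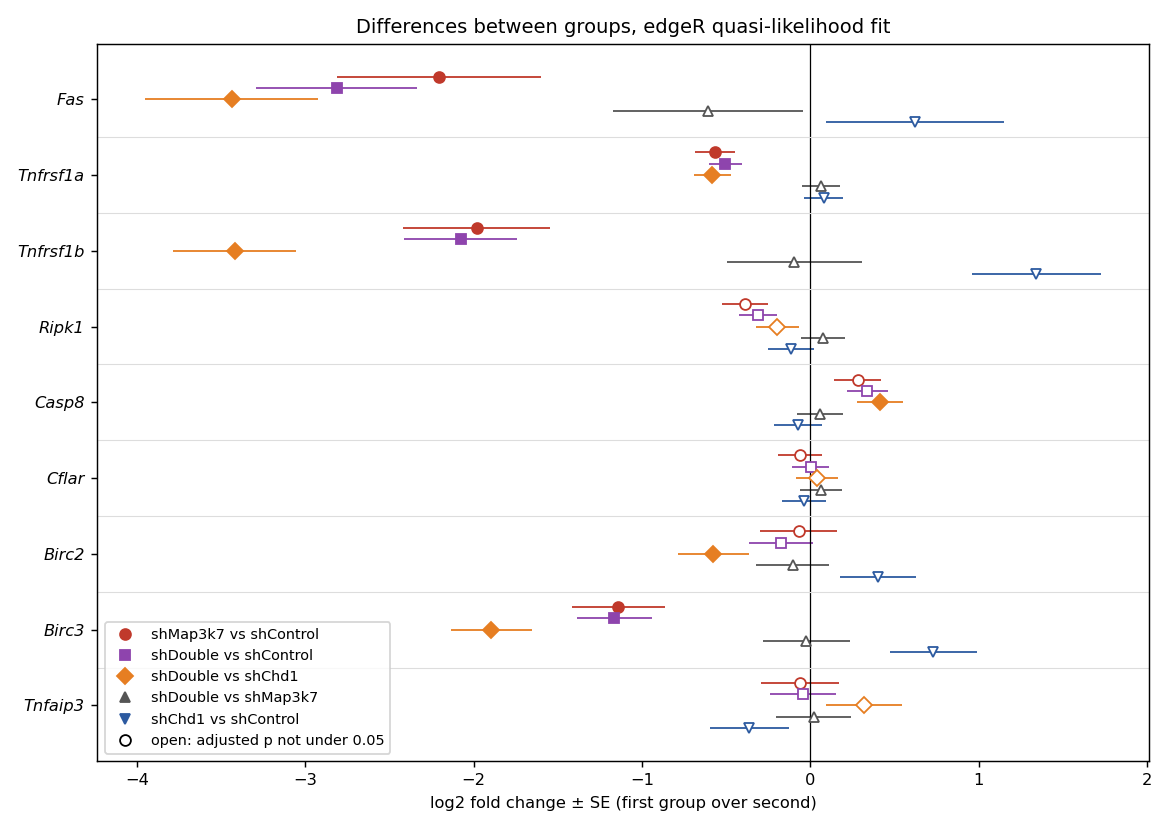
Log2 fold changes ± SE of the 9 members tested in 5 comparisons between groups, first group over second; filled symbols mark an edgeR adjusted p under 0.05. Fas, Tnfrsf1a, Tnfrsf1b and Birc3 were lower in all 3 comparisons of a Map3k7 clone group with a group of other lines, and Cflar lay near 0 in all 5. Tnfaip3 lay near 0 in shMap3k7 and shDouble against shControl. It lay at -0.36 in shChd1 against shControl, where the median of its chromosome was -0.23.

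Of the 9 members tested, the control libraries differed most among themselves for Fas (3.33-fold from lowest to highest), Tnfrsf1b (2.86-fold) and Birc3 (1.78-fold), 3 of the 4 that fell in the Map3k7 clones. Set against the mean of the other controls, the line 4 control was higher for Fas (2.75 times), Tnfrsf1b (2.64), Birc3 (1.53) and Birc2 (1.26), closer to it for Tnfaip3 (1.12), Tnfrsf1a (1.08), Ripk1 (0.986) and Casp8 (0.944), and lower for Cflar (0.801). With line 4 left out, which drops both shChd1 libraries and a control, the log2 difference of shMap3k7 from shControl was -1.55 for Fas (adjusted p = 0.158), -0.54 for Tnfrsf1a (adjusted p = 0.0616) and -0.91 for Birc3 (adjusted p = 0.103), and of the 4 Tnfrsf1b alone stayed past the threshold (-1.36, adjusted p = 0.0315).

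Fas and Tnfrsf1b lie on chromosomes whose genes were shifted upwards in the Map3k7 clones. The median log2 difference from shControl of the 468 genes tested on chromosome 19 was 0.36 in shMap3k7 and 0.39 in shDouble, and that of the 882 genes on chromosome 4 was 0.21 in shMap3k7. For chromosome 4 the shift was mainly in clone 1, at 0.31 to 0.32 per library, against 0.11 to 0.12 in clone 7. The line 4 control stood at 0.08. Fas and Tnfrsf1b were lower in the Map3k7 clones, against the direction of their chromosomes. Chromosomes 1, 6, 9, 10 and 13, which hold the other members tested, had medians of -0.04 to 0.09 in shMap3k7. In the clone 7 libraries, chromosomes 10 and 13 stood at 0.10 to 0.15. Chromosome 10, which holds Tnfaip3, was shifted downwards in shChd1, with a median of -0.23 against shControl. Relative to the control mean it stood at -0.21 and -0.22 in the shChd1 libraries and at -0.14 in the line 4 control.

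No member passed the edgeR threshold in shDouble against shMap3k7 or in shChd1 against shControl. In shDouble against shMap3k7, 0 of the 9 members and 0% of all genes were called, and at an unadjusted p under 0.05 edgeR gave 0 members and 115 genes (0.802%). DESeq2 and the fit with the line as a fixed replicate block also called 0. Chd1 itself, at -0.30 ± 0.10 on the log2 scale, was not called here (edgeR unadjusted p = 0.0099). A comparison that does not call the hairpins' own target cannot show that the members were unchanged. No member had ranges that did not overlap, where 3.15% of all genes were so lower and 3.56% higher (6.71% in all). The log2 difference was 0.06 ± 0.11 for Tnfrsf1a, -0.10 ± 0.40 for Tnfrsf1b, -0.02 ± 0.26 for Birc3 and -0.61 ± 0.56 for Fas. The interval of ± 2 SE for Fas, -1.73 to 0.52, leaves room for sizeable differences, and that of Tnfrsf1a, -0.16 to 0.29, for smaller ones.

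In shChd1 against shControl, 0 of the 9 members were called, where 2.91% of all genes were (2.24% lower and 0.662% higher). At an unadjusted p under 0.05 there were 2, Tnfrsf1b at 1.34 ± 0.38 (edgeR adjusted p = 0.0764) and Birc3 at 0.73 ± 0.26 (adjusted p = 0.119). Fas was at 0.62 ± 0.53 (edgeR adjusted p = 0.490). Tnfaip3 was at -0.36 ± 0.23 (edgeR adjusted p = 0.358). The median of the 645 genes tested on its chromosome 10 was -0.23 in the same comparison. Ranges did not overlap for Tnfrsf1b, Birc3 and Birc2, which were higher, and for Ripk1, which was lower, where 23.1% of all genes were so higher and 23.5% lower (46.6% in either direction). DESeq2 called Tnfrsf1b (1.35, adjusted p = 0.0125), as did edgeR with no filter on low counts (1.34, adjusted p = 0.0419). Without shControl replicate 2, the control of the same line, Tnfrsf1b (1.97, adjusted p = 0.0010) and Birc3 (0.97, adjusted p = 0.0262) were both called. With the line as a fixed replicate block, which compares within line 4, Tnfrsf1b was at 0.57 (adjusted p = 0.238) and Fas turned to -0.17 (adjusted p = 0.871).

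Within each line, the library with a Chd1 hairpin can be set against the one without. Tnfrsf1b was higher with the hairpin in clone 1, by log2 ratios of 0.48 and 0.54, and in line 4, by 0.67 and 0.47, and lower in clone 7, at -0.58 and -0.53. Fas was below its own line in all 6 cases, by little in 4 of them, and stood at 61.9% in clone 1 with construct 96526 and at 20.1% in clone 7 with construct 96528. That last library shared its clone with one at 94.9%, made with the other construct. Tnfaip3 stood at 56.7% of its own line in line 4 with construct 96528 and at 87.8% with 96526. The lines have 1 library each without a Chd1 hairpin, so these ratios carry no error of their own.

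**Figure D3:**
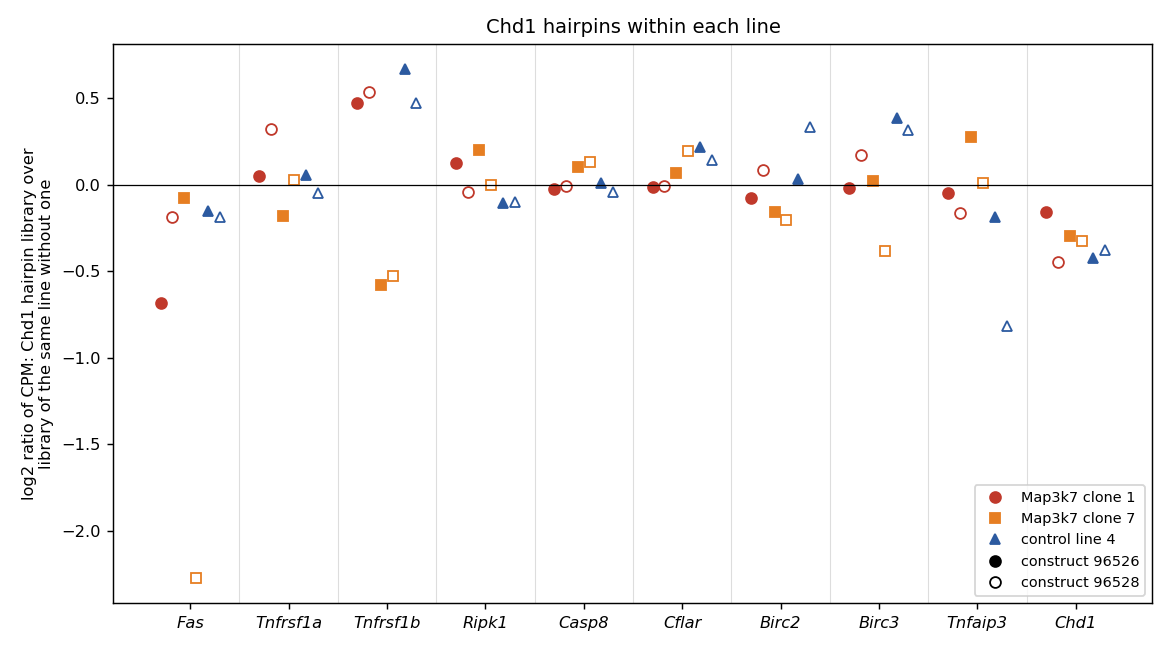
Log2 ratio of CPM of each library with a Chd1 hairpin over the library of the same line without one, for the 9 members tested and Chd1; colours are lines and filled or open symbols the 2 constructs. Chd1 lay below 0 in all 6, Tnfrsf1b was positive in clone 1 and line 4 and negative in clone 7, and Fas had 1 ratio at -2.27.

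The interaction of both knockdowns, that is, the shDouble to shMap3k7 difference less the shChd1 to shControl difference, called 0 members and 0% of all genes. At an unadjusted p under 0.05 there were 1 member, Tnfrsf1b, at -1.44 ± 0.55 (edgeR adjusted p = 0.303), and 1998 genes (13.9%). DESeq2 called 339 genes and 0 members, and the fit with the line as a fixed replicate block 11 genes and 0 members. Without shControl replicate 2, Tnfrsf1b was called at -2.07 (adjusted p = 0.0073).

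The wider pathway was described by 5 lists of genes. Beside each count of called genes below, the share over all genes was 4.86% higher and 7.08% lower (11.9% in all) in shMap3k7 against shControl, and 10.2% higher and 13.6% lower (23.8% in all) in shDouble against shControl. Of 10 TNF superfamily ligands only 3 were measured well enough to test, with a median of -0.16 in shMap3k7 against -0.01 over all genes. The 1 called, lower in both Map3k7 clone groups, was Tnfsf10, which encodes TRAIL, a death ligand of the same family. It had 1 and 2 counts in shMap3k7, 1, 6.01, 1 and 4 counts in shDouble, 141 and 188 counts in shChd1, and 22, 77 and 9 counts in shControl. It was thus at 6.01 counts or fewer in the Map3k7 clones and highest in shChd1. It passed the filter on low counts only through the groups in which it was high, so its counts are given as a description and its call supports nothing. Tnf itself had 1 count in shMap3k7 and 0 in all other libraries, so no level of the ligand was detectable at this depth.

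Of 15 other TNF receptor superfamily genes 12 were tested. In shMap3k7 0 were called higher and 1 lower, and in shDouble 1 higher and 1 lower, against shControl, near the shares over all genes. The one that fell was Tnfrsf21, which encodes death receptor 6, at 24.9 to 35.1 CPM in shMap3k7, 26.4 to 34.2 CPM in shDouble, 201 to 251 CPM in shChd1 and 40.1 to 88.8 CPM in shControl. It fell with log2 differences of -1.14 ± 0.29 in shMap3k7 (edgeR adjusted p = 0.0312) and -1.09 ± 0.23 for shDouble (adjusted p = 0.0083), and it rose by 1.77 ± 0.27 in shChd1 (adjusted p = 0.0248), all against shControl. Its order of groups was that of Tnfrsf1b. Tnfrsf22, a decoy receptor for TRAIL in the mouse, fell by 1.22 ± 0.23 in shChd1 (adjusted p = 0.0354). It stood at 20.0 and 13.9 CPM in shChd1, 27.5 CPM in the line 4 control and 45.5 and 45.4 CPM in the other controls. The call ended with the line as a fixed replicate block. The parts of line and hairpin were not tested. Ngfr, the p75 neurotrophin receptor, had 9 and 8 counts in shChd1 and 1, 8 and 0 counts in shControl, under the filter's minimum of 10, so its higher call in shDouble is given with no fold and supports nothing. Its level followed the clone, at 7.28, 6.90 and 3.44 CPM in clone 1 libraries, 0.362, 1.67 and 0.594 CPM in clone 7 libraries and at most 0.560 CPM elsewhere.

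All 23 adaptors and ubiquitin-machinery genes were tested: 1 rose and 2 fell in shMap3k7, and 3 rose and 2 fell in shDouble, against shControl. These 3 of 23 and 5 of 23 are near the shares over all genes, 11.9% and 23.8%. Optn, an adaptor that binds ubiquitin chains, averaged 36.6 ± 6.08 CPM in shMap3k7 (SD, n = 2) and 33.4 ± 4.42 CPM in shDouble (n = 4), against 61.6 ± 11.4 CPM in shControl (n = 3). Its log2 differences from shControl were -0.75 ± 0.19 in shMap3k7 (edgeR adjusted p = 0.0274) and -0.89 ± 0.15 for shDouble (adjusted p = 0.0028). Ikbkg, which encodes the IKK subunit NEMO, fell too, at -0.50 ± 0.14 in shMap3k7 (adjusted p = 0.0446) and -0.58 ± 0.12 for shDouble (adjusted p = 0.0060). Chuk, which encodes IKK-alpha and lies on the raised chromosome 19, rose by 0.47 ± 0.11 in shMap3k7 (adjusted p = 0.0216) and by 0.46 ± 0.09 for shDouble (adjusted p = 0.0062). Tab3, a TAK1-binding protein gene, and Traf6, a ubiquitin ligase upstream of TAK1, rose in shDouble by 0.33 ± 0.09 (adjusted p = 0.0250) and 0.37 ± 0.11 (adjusted p = 0.0362).

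Of 18 death effectors 17 were in the table and tested, and 1 was called higher and 1 lower in shMap3k7, while 2 were called higher and 4 lower in shDouble, against shControl, where 11.9% and 23.8% of all genes were called. Zbp1, a sensor of nucleic acids that engages RIPK3, had 1 and 1 counts in shMap3k7, 3, 1, 4 and 0 counts in shDouble, 245 and 164 counts in shChd1, and 17, 168 and 34 counts in shControl. Like Tnfsf10 it was at 4 counts or fewer in the Map3k7 clones and, among controls, highest in line 4. It too passed the filter only through the groups in which it was high, so its call, 1 of those counted as lower, supports nothing. Cycs, which encodes cytochrome c, rose by 0.61 ± 0.16 on the log2 scale in shMap3k7 (edgeR adjusted p = 0.0389) and by 0.55 ± 0.14 for shDouble (adjusted p = 0.0191). In shDouble, Ticam1, the adaptor of Toll-like receptor 3, fell by 0.54 ± 0.14 (adjusted p = 0.0179), the caspase gene Casp6 fell by 0.48 ± 0.14 (adjusted p = 0.0294) and Bid, a target of caspase-8, fell by 0.62 ± 0.18 (adjusted p = 0.0323), while Mlkl rose by 0.37 ± 0.12 (adjusted p = 0.0472). Fadd, named for its role and not for its change, averaged 18.6 ± 5.61 CPM in shMap3k7, 18.5 ± 3.80 CPM in shDouble and 17.6 ± 1.21 CPM in shControl.

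Of 14 survival genes 12 were tested, and 0 rose and 3 fell in shMap3k7, while 1 rose and 3 fell in shDouble, against shControl, where 7.08% and 13.6% of all genes were called lower. The same 3 fell in both. Sod2, which encodes mitochondrial superoxide dismutase, averaged 48.2 ± 2.26 CPM in shMap3k7 (SD, n = 2), 49.9 ± 4.41 CPM in shDouble (n = 4) and 147 ± 15.1 CPM in shChd1 (n = 2), against 118 ± 33.04 CPM in shControl (n = 3). Its log2 differences from shControl were -1.30 ± 0.21 in shMap3k7 (edgeR adjusted p = 0.0053) and -1.25 ± 0.17 for shDouble (adjusted p = 8.65e-04). Fth1, the ferritin heavy chain gene, lies on the raised chromosome 19 yet fell, at -1.59 ± 0.31 in shMap3k7 (adjusted p = 0.0115) and -1.61 ± 0.24 for shDouble (adjusted p = 0.0016). Tnfaip8 fell as well, at -0.69 ± 0.17 in shMap3k7 (adjusted p = 0.0274) and -0.80 ± 0.14 for shDouble (adjusted p = 0.0029), and Mcl1, an anti-apoptotic BCL2-family gene, rose by 0.21 ± 0.07 in shDouble (adjusted p = 0.0408). The medians of the adaptor, effector and survival lists in shMap3k7 were -0.0024, 0.03 and 0.07, near the -0.01 of all genes.

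These list calls differed in how well they held. Against shControl, Tnfrsf21, Optn, Ikbkg, Chuk, Sod2, Fth1 and Tnfaip8 kept their call in shDouble in all 18 alternatives. With the line as a random replicate block, 11 of the 18 list calls in shDouble ended. Of the 18 alternatives, Mcl1 kept its call in 2, Traf6 in 5 and Mlkl in 6. Casp6 kept it in 9, Tab3 in 10, Bid in 11 and Ticam1 and Cycs in 14 each. In shMap3k7, all 10 list calls ended with only the groups compared and without shMap3k7 replicate 1, 7 ended with the line as a random replicate block, 9 ended without shMap3k7 replicate 2 and 7 without shControl replicate 2, and Ikbkg kept its call in 5 of 18. In shChd1, Tnfrsf21 kept its call in 12 alternatives and Tnfrsf22 in 5. All of these kept their sign throughout.

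**Figure D4:**
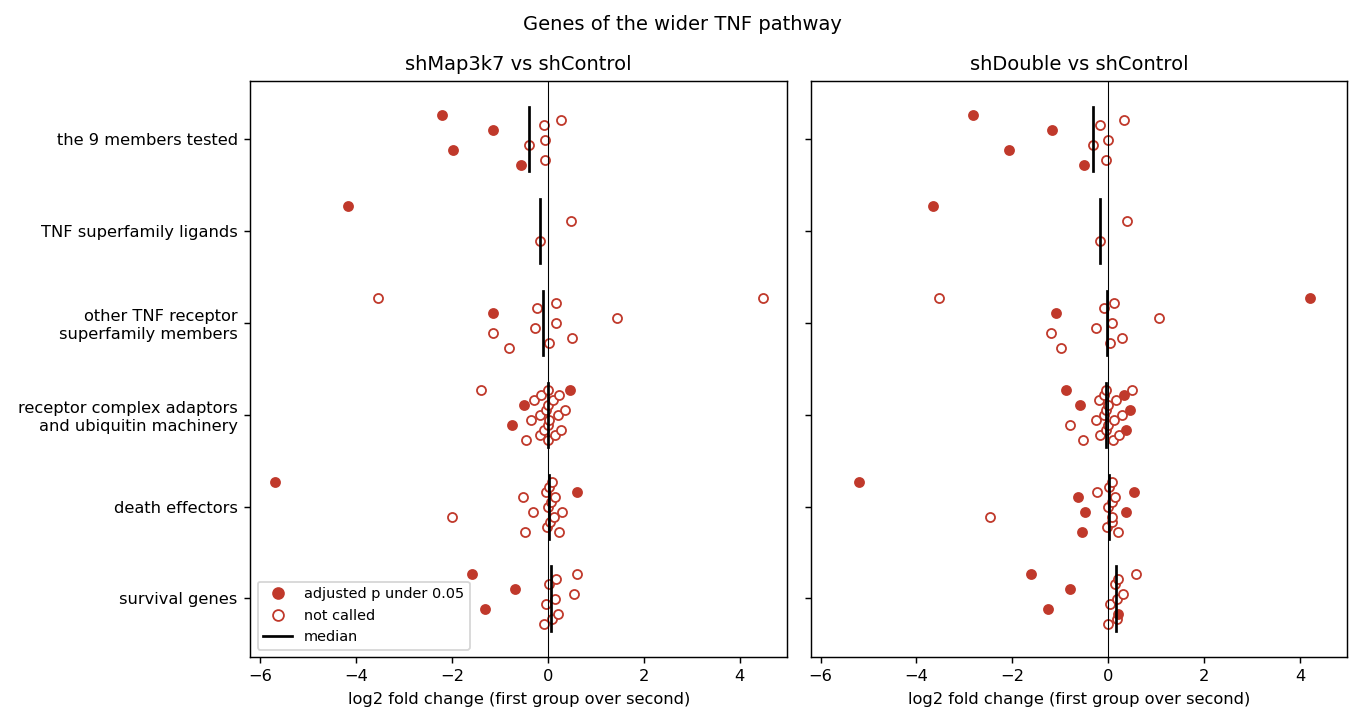
Log2 fold changes of the 9 members tested and of the tested genes of 5 pathway lists, for shMap3k7 over shControl (left) and shDouble over shControl (right); filled points had an edgeR adjusted p under 0.05 and bars are medians. The list medians lie near 0, and Sod2, Fth1 and Tnfaip8 are the 3 filled points to the left among the survival genes.

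Over all 11 libraries, the gene whose log2 level was most like that of Fas was Gbp2 (r = 0.987), like that of Tnfrsf1b was Dclk1 (r = 0.993), like that of Birc3 was Tapbp (r = 0.993) and like that of Tnfrsf1a was Trappc6a (r = 0.977), among 9870 candidates. Among the members, the highest values were between Tnfrsf1b and Birc3 (r = 0.946) and between Fas and Birc3 (r = 0.941), against 0.547 between the neighbours Birc2 and Birc3 and -0.901 between Casp8 and Birc3. The libraries share lines and groups, so these values describe the 11 libraries and are given with no test.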

How the data were processed

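Poly(A) RNA of 11 libraries in 4 groups was analysed. Per the labels' protocols, cDNA was made with random hexamers; per the submitters' processing notes, Bowtie2, RSEM 1.3.1 and limma were used with the mouse genome GRCm38. Which annotation and strand setting RSEM was run with is not given in the sources used here. Of 2 tables, the deposited raw one holds expected counts (estimated reads per gene, not normalized), between 7.83% and 9.11% of them not whole. The deposited normalized table holds log2 values, equal to log2 of the raw count plus 0.5 less a constant per library to within 5.02e-09. RSEM divides reads shared by similar genes. Dates stood for 25 gene symbols.

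Counts were rounded and analysed in R 4.3.3 with edgeR 4.0.16. The filter (filterByExpr, minimum count 10, minimum total 15) kept 14346 genes. Log2 CPM carried a prior count of 0.5. Intervals and floors cover counting error only, since reads had no molecular identifiers. Alternatives used DESeq2 1.42.0 and limma 3.58.1, other size factors, no filter, only the groups compared, the line as a replicate block, each library left out and, chosen after seeing the data, line 4 left out. The labels name the line of each library; the difference between clones 1 and 7 correlated with r = 0.500 over 14346 genes between shDouble and shMap3k7, and the consensus correlation within lines was 0.631. Genes named were the 10 members, Map3k7 and Chd1, and called genes of the lists. The plan was up to 4 per list and comparison with the smallest adjusted p, but it was not kept throughout. In shDouble against shControl all called list genes were named. In shDouble against shChd1, Fth1, Sod2 and Tnfaip8 were also called but were described only against shControl. The fit was tested on simulated data in which libraries varied independently, with no differences between lines. That simulation therefore cannot show how the fit behaves where libraries share a line. The members and lists were chosen with earlier results of these data known.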

Additional observations from a re-analysis of the deposited data

Results flagged for a closer look

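The ratio of libraries with a Chd1 hairpin to the library of the same line without one had opposite signs between lines for 5 members, with both constructs of a line on the same side; these differences were not tested, since each line has 1 library without a hairpin. For Tnfrsf1b the mean log2 ratio in clone 7 was lower than in clone 1 by a difference of -1.06 and lower than in line 4 by a difference of -1.12. For Tnfaip3 it was higher in clone 7 than in clone 1 by 0.25 and than in line 4 by 0.65. For Birc2 it was lower in clone 7 than in line 4 by a difference of -0.37. For Cflar it was higher in clone 7 than in clone 1 by 0.14, and lower in clone 1 than in line 4 by a difference of -0.19. For Casp8 it was higher in clone 7 than in clone 1 by 0.13. In clone 1 both genes were nearly level with the library without a Chd1 hairpin, Cflar at 99.1% and 99.7% of it and Casp8 at 98.4% and 99.7%. In the shDouble group of 4 libraries, no library of any member stood apart from the others by Dixon's test. With so few values, which mix clones and constructs, that test can miss an outlying library. Fas was at 0.773 CPM in shDouble replicate 4, against 3.64 CPM in shDouble replicate 3 of the same clone.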

How the results depend on the processing

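Fas, Tnfrsf1b and Birc3 kept their lower call in shDouble in all 18 alternatives against shControl and all 17 against shChd1. In shMap3k7 against shControl, 4 members and 1712 genes were called. The members called were 0 with only the groups compared, 0 with the line as a random replicate block, 1 with line 4 left out and 0 to 4 with each library left out; the genes were 227, 722, 717 and 244 to 2070 under the same settings, and 2599 with DESeq2. In shDouble against shControl, 3413 genes were called, 1557 with the random replicate block, 1645 with line 4 left out and 2177 to 3273 with each library left out. In shDouble against shChd1, 6426 genes were called, 3193 with the random replicate block and 3649 to 6585 with each library left out. In shChd1 against shControl, 417 genes and 0 members were called; genes were 684 and members 1 with no filter, 1635 and 1 with DESeq2, 0 genes with only the groups compared, 142 with the line as a fixed replicate block, and 0 to 2650 genes and 0 to 2 members with each library left out. The interaction called 0 genes, 31 with no filter, 339 with DESeq2, 11 with the fixed replicate block, and 0 to 1006 genes and 0 to 1 members with each library left out. The cause of these differences was not tested.

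Signs turned mostly for differences near 0. The exception was Fas in shChd1 against shControl, at 0.62 ± 0.53 in the main fit. For Cflar in shDouble against shControl the value was -0.0048 with other size factors, -0.0049 with DESeq2, -0.0075 with only the groups compared and -0.11 with line 4 left out. For Birc2 in shMap3k7 against shControl it was 0.041 with line 4 left out. With the line as a replicate block, Cflar was -0.10 in shDouble against shChd1 (random), 0.18 (fixed) and 0.11 (random) in shChd1 against shControl, and -0.12 (fixed) and -0.046 (random) in the interaction; Fas was -0.17 (fixed) in shChd1 against shControl, and Tnfrsf1a 0.054 (fixed) and 0.026 (random) in the interaction. With each library left out, signs turned within these ranges: in shMap3k7 against shControl Cflar -0.16 to 0.021, Birc2 -0.42 to 0.20 and Tnfaip3 -0.26 to 0.11; in shDouble against shControl Cflar -0.098 to 0.087 and Tnfaip3 -0.24 to 0.13; in shDouble against shChd1 Cflar -0.021 to 0.080; in shDouble against shMap3k7 Tnfrsf1a -0.016 to 0.12, Tnfrsf1b -0.50 to 0.46, Ripk1 -0.036 to 0.20, Casp8 -0.051 to 0.18, Birc2 -0.38 to 0.24, Birc3 -0.16 to 0.13, Tnfaip3 -0.079 to 0.13 and Map3k7 -0.064 to 0.035; in shChd1 against shControl Cflar -0.14 to 0.045 and Map3k7 -0.0084 to 0.081; and in the interaction Tnfrsf1a -0.10 to 0.041. Where a group of 2 lost a library, the lone one was assumed to vary like the other groups. Depth limits Ripk3, Tnf and, in the Map3k7 clones, Tnfsf10 and Zbp1.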

Other observations

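In shDouble against shChd1, 4 of the 12 survival genes tested rose and 4 fell, where 22.6% of all genes were called higher and 22.2% lower. Gadd45b, a stress-induced inhibitor of JNK signalling, was higher by 1.18 ± 0.24 on the log2 scale (edgeR adjusted p = 0.0030), Ier3 by 1.32 ± 0.28 (adjusted p = 0.0036) and Bcl2l1, which encodes BCL-XL, by 0.78 ± 0.18 (adjusted p = 0.0058). Xiap, an inhibitor of caspases, fell by 0.42 ± 0.12 (adjusted p = 0.0138). With the line as a random replicate block the calls of Gadd45b (adjusted p = 0.0872), Bcl2l1 (0.111) and Xiap (0.196) ended, and those of Bcl2l1 and Xiap also ended without shChd1 replicate 2; Ier3 kept its call in all 17 alternatives. Among the receptors, Tnfrsf14 had 0 counts in all 6 libraries of Map3k7 clones. It had 1, 1 and 2 counts in shControl, and 15 and 13 counts in shChd1. It passed the filter on low counts only through shChd1. A count of 0 allows up to 3 counts, so its level in the Map3k7 clones cannot be told apart from that in shControl. Both shChd1 libraries derive from line 4, whose control without a Chd1 hairpin was the nearest control to them for the 4 survival genes named. Gadd45b stood at 22.7 CPM in it, 19.7 and 21.3 CPM in shChd1, and 43.3 and 47.2 CPM in the other controls. Ier3 stood at 104, 87.0 and 87.9, and 143 and 194 CPM in the same order. Bcl2l1 stood at 103, 96.5 and 78.8, and 130 and 163 CPM. Xiap stood at 63.4, 71.6 and 87.8, and 52.7 and 62.1 CPM. The parts of line and knockdown were not tested, since line 4 has a single library without a Chd1 hairpin.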
